A study of Mus musculus with 2 samples.

Results

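The genes of glycolysis and of the cellular response to low oxygen were followed in embryonic mouse ureters treated with BIO. The set held 36 genes out of 29875 genes with a probe on the array. They were chosen by name for their place in these pathways, with earlier results of these data known. It comprised 16 genes of glucose uptake and glycolysis, 5 genes that steer pyruvate and lactate, 4 genes of oxygen sensing, and 11 other targets of the hypoxia-inducible factors (HIFs). All 36 had a probe that could be tested, and all 62 of their probes were well above background in both channels of both arrays.

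The tissue was wildtype NMRI ureter, dissected at E12.5 and kept as an explant for 18 h in serum-free medium. The treated cultures received 10 µM BIO, an inhibitor of the kinase GSK3 that is used to activate canonical WNT signaling, and the control cultures received the solvent DMSO at 2 parts per 1000. Each of 2 arrays compared a pool of BIO ureters with a pool of control ureters, with BIO RNA in the red channel in replicate 1 and in the green channel in replicate 2. The comparison addresses which genes respond to BIO in the early ureter. Responses through WNT signaling and through other effects of BIO cannot be told apart in this design.

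Glycolysis breaks glucose down to pyruvate, which is then either reduced to lactate or passed to the mitochondria. HIF factors consist of an oxygen-regulated alpha subunit and a stable partner. In the presence of oxygen, prolyl hydroxylases mark the alpha subunit for degradation, whereas in hypoxia it accumulates and activates genes for glucose uptake, glycolysis, lactate export, mitophagy and vessel growth. This regulation acts largely on the protein, so mRNA levels of the alpha subunits are not a measure of HIF activity.

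HIF dimers contact DNA through a core of 5 bases, ACGTG or GCGTG, and the upstream sequences of 6 members are shown because members with the core fell and others with it were not called. Each sequence holds the 250 bases before the transcription start in the RefSeq annotation, 5′ to 3′ on the strand of the gene, with every core on either strand in capitals. Egln3, Ankrd37 and Higd1a fell in BIO ureters. Ldha, Bnip3 and Slc16a3 were not called.

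Egln3, GRCm38.p6 chr12:54203875-54204124, minus strand: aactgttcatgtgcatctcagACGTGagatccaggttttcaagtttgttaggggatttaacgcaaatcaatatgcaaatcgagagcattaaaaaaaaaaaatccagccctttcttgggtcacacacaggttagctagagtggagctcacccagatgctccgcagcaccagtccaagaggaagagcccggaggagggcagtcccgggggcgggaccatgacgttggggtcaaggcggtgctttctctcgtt

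Ankrd37, GRCm38.p6 chr8:45999851-46000100, minus strand: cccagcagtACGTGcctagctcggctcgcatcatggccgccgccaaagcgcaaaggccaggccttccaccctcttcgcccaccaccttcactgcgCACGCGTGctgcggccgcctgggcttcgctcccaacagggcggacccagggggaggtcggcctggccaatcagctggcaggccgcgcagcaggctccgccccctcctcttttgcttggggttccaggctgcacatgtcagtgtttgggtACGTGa

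Higd1a, GRCm38.p6 chr9:121857797-121858046, minus strand: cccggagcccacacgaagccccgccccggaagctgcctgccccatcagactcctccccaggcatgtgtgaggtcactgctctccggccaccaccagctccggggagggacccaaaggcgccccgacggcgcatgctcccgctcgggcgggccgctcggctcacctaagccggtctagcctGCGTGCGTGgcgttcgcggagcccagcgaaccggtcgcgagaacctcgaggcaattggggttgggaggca

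Ldha, GRCm38.p6 chr7:46845554-46845803, plus strand: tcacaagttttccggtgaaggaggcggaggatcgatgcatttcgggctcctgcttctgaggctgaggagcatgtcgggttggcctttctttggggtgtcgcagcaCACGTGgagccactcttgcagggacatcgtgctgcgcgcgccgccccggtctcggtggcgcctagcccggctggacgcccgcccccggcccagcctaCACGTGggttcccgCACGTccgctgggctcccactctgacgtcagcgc

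Bnip3, GRCm38.p6 chr7:138909507-138909756, minus strand: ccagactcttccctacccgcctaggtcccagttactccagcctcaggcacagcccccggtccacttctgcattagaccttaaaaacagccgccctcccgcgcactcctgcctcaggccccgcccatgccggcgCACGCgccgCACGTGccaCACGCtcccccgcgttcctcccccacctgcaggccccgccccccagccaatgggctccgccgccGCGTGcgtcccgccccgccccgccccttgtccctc

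Slc16a3, GRCm38.p6 chr11:120948817-120949066, plus strand: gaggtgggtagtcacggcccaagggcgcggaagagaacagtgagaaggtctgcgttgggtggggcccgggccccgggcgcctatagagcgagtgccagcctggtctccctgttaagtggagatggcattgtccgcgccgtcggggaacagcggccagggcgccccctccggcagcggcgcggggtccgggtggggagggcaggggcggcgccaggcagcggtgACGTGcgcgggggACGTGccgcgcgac

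The Egln3 sequence carried 1 core and that of Ankrd37 carried 4. The Ldha sequence carried 5 cores, among them both strands of the palindrome CACGTG, which counts as 2, at 2 places. Bnip3 also carried 5. Of the 36 members, 34 had an upstream sequence, and Epas1 and Ndrg1 were not matched. At the most upstream start of each gene, 27 of 34 members (79.4%) held at least 1 core, compared with 10442 of 27025 genes with such a sequence (38.6%). The genes compared were all those with an upstream sequence, whether or not they were tested on the arrays. The member sequences were richer in G and C, with a median of 63.4% against 52.0%. The members were also chosen in part as HIF targets. The parts of base composition and of this choice in the higher share with a core were not tested. Among the members, 5 of 5 that fell and 22 of 29 that were not called held a core. A core in this window is only a run of letters, and binding was not measured.

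**Figure D1:**
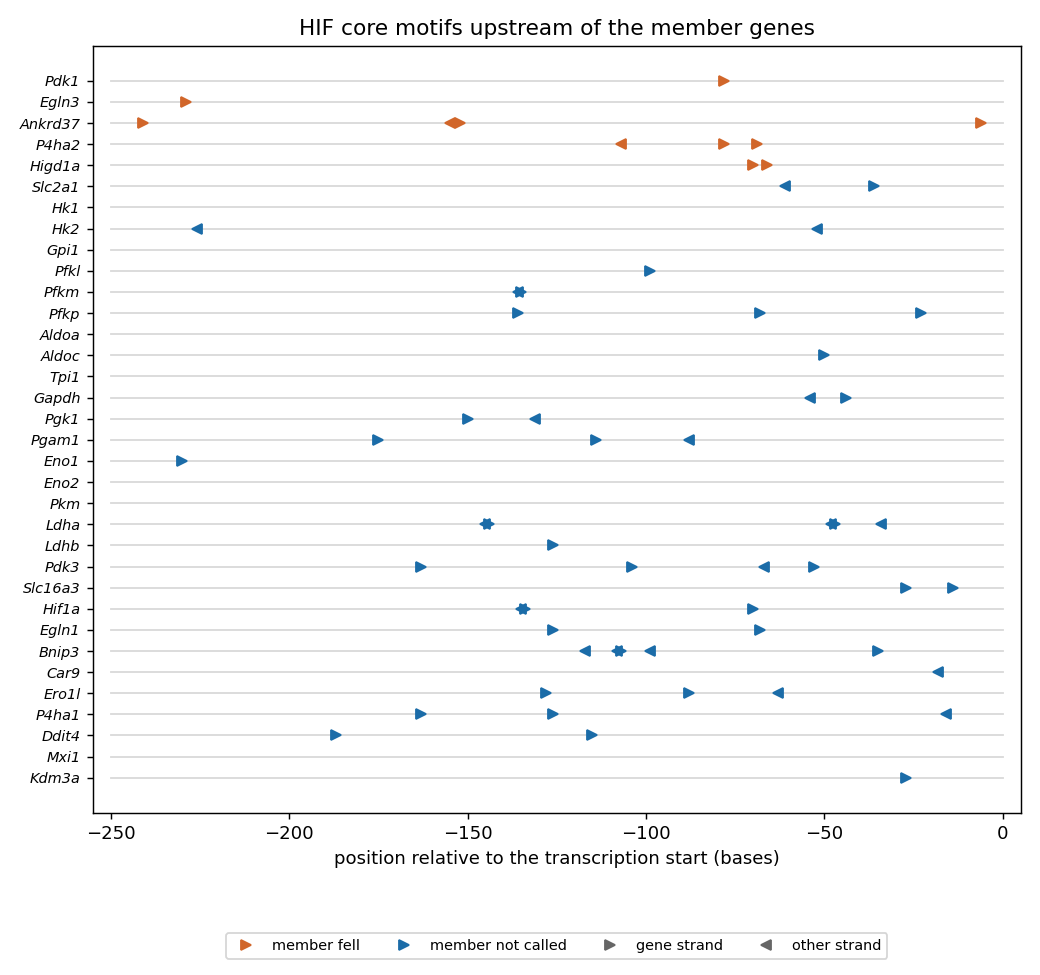
Positions of the core motifs ACGTG and GCGTG in the 250 bases before the transcription start of 34 members (x axis, bases relative to the start; 1 line per gene). Triangles point right for the strand of the gene and left for the other strand, and overlapping triangles are palindromes. Members that fell (orange) and members that were not called (blue) both carry cores, and 7 of the members that were not called carry none.

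In BIO ureters 0 of the 36 members rose, 7 fell and 29 were not called (10 members, those that fell included, had an unadjusted p below 0.05) at an adjusted p below 0.05 in the limma fit over 28824 probes. The members that fell were Epas1, Egln3, Ndrg1, Higd1a, Pdk1, Ankrd37 and P4ha2. Across the array 23.9% of the 21574 genes tested changed, 9.13% rose and 14.8% fell, and 19.4% of the members fell, which is not far from the share over all genes. The median log2 ratio of the members was −0.14, with −0.14 on replicate 1 and −0.019 on replicate 2, compared with −0.01 over all genes tested. A ratio of the same sign on both arrays was found for 31 of the 36 members (86.1%), against 72.9% of all genes. A mean below 0.5 in size was also found for 31 members, against 84.9% of all genes. Intensities below are normalized within each array, ratios are log2 of BIO over control, and errors are SE from the limma fit with n = 2 arrays.

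**Figure D2:**
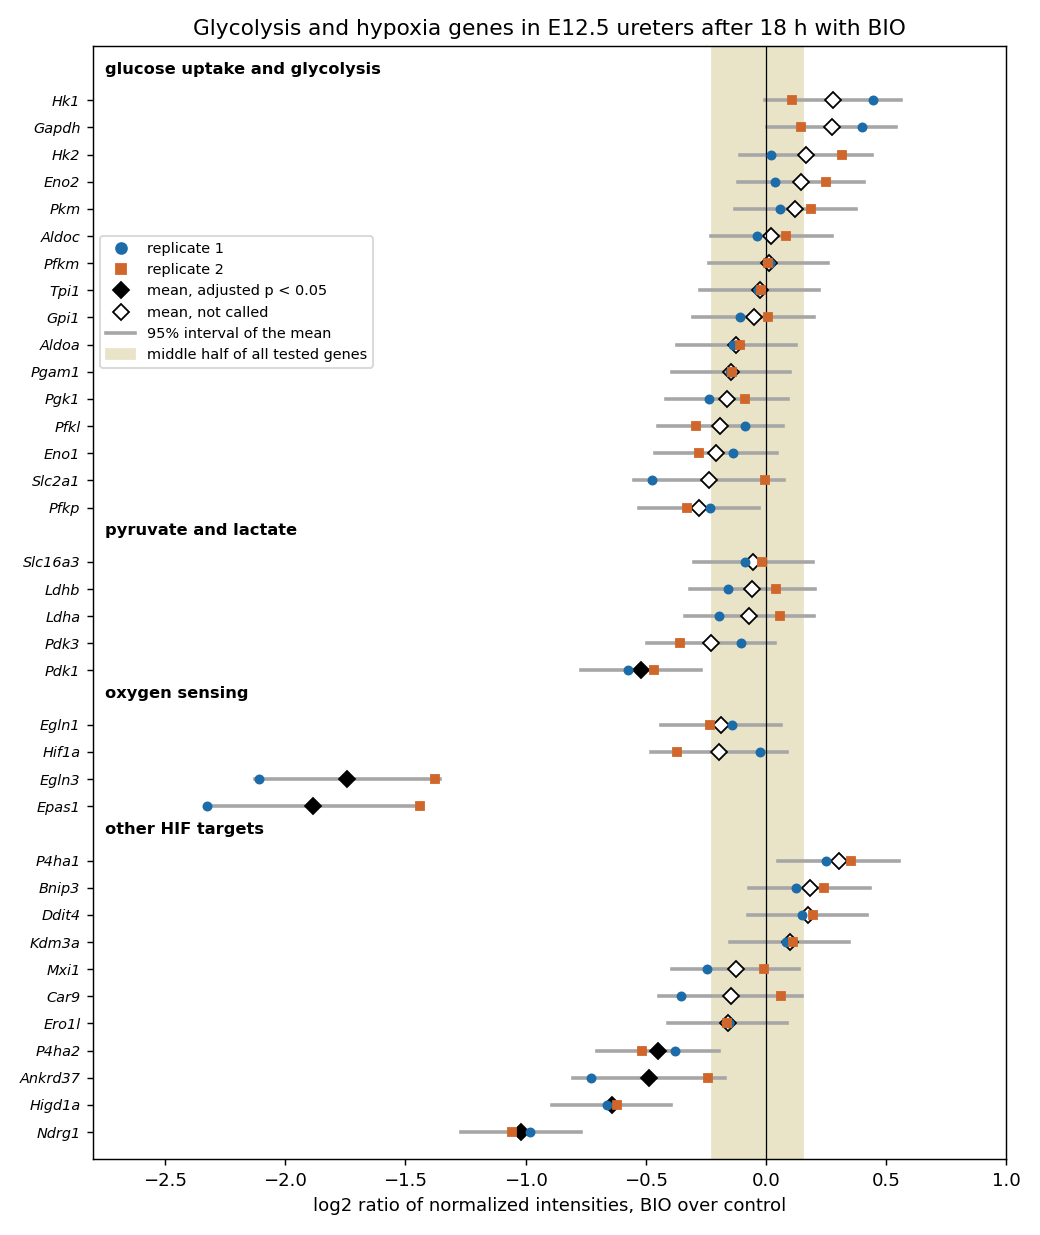
Log2 ratio of BIO over control (x axis) for the brightest probe of each of the 36 members, grouped by role. Circles and squares are the arrays, diamonds their mean (filled where the adjusted p was below 0.05), grey lines the 95% interval and the shaded band the span from the 25th to the 75th percentile of all genes tested. The 16 glycolytic genes lie between −0.28 and 0.28, while Epas1 and Egln3 lie at −1.88 and −1.74.

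Genes of glucose uptake and glycolysis stayed close to control along the whole chain when each was read by its brightest probe and scaled by loess. By these probes 0 of the 16 genes were called, 2 had an unadjusted p below 0.05, the mean ratios ran from −0.28 for Pfkp to 0.28 for Hk1, and the adjusted p-values lay between 0.104 and 0.952. With loess and these probes, the 95% intervals of the 16 ratios all lay between −0.55 and 0.56, which allows changes of up to 1.48-fold. The median over the 16 genes was −0.04, with −0.06 on replicate 1 and 0.00 on replicate 2. Its sign depended on the scaling, since centering each array on its median, without loess, gave 0.06. With that centering the 16 means ran from −0.40 for Pfkp to 0.63 for Gapdh. Hk1 stood at 0.59, so that Hk1 and Gapdh lay above the limits of the loess intervals. Other probes of Hk1 and Pfkp, given below, also lay outside those limits. Most of the 16 genes gave bright probes, with a median intensity at the 90.9th percentile of all genes tested.

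Slc2a1, the main glucose transporter of embryonic tissues, had an intensity of 33894 in control and 24432 in BIO on replicate 1, and of 28333 and 28291 on replicate 2. Its ratio was therefore −0.47 on one array and 0.00 on the other. Hk2, an inducible hexokinase that phosphorylates glucose, went from 6519 to 6609 and from 5627 to 7003, a mean ratio of 0.17 ± 0.12. The phosphofructokinases set the pace of the pathway. Their liver form Pfkl had a mean ratio of −0.19 ± 0.11 and their muscle form Pfkm one of 0.01 ± 0.11. Downstream, the aldolase gene Aldoa (−0.12 ± 0.11), the triosephosphate isomerase gene Tpi1 (−0.03 ± 0.11) and the phosphoglycerate kinase gene Pgk1 (−0.16 ± 0.11) all had intervals that included 0. The same held for Gpi1 (−0.05 ± 0.11), Aldoc (0.02 ± 0.11) and Pgam1 (−0.15 ± 0.11). A second Tpi1 probe had a mean of 0.09 and was not called either. Pgk1 is a common marker of HIF activity and read 41040 in control and 34874 in BIO on replicate 1, and 33624 and 31650 on replicate 2. Pkm, the pyruvate kinase of the last step, had 84390 and 87934 on replicate 1 and 74288 and 84571 on replicate 2. Eno1, the ubiquitous enolase, was lower in BIO on both arrays, at −0.14 and −0.28, and its neuronal counterpart Eno2 was higher on both, at 0.04 and 0.25, but neither was called.

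Gapdh, often used as a reference gene, read 151291 in control and 199833 in BIO on replicate 1, and 161120 and 178343 on replicate 2. This gave a mean ratio of 0.27 ± 0.12 with an adjusted p of 0.131 in the limma fit. All 9 of its probes had a mean ratio above 0, between 0.17 and 0.35, and none was called. With median centering the same gene stood at 0.63 with an adjusted p of 0.0340, so its call depended on how bright probes were scaled. Of the 9 probes, 2 are placed on chromosome 7 and 7 on chromosome 6 in the mm9 positions of the file. The brightest probe, whose values stand for Gapdh here, is one of those on chromosome 7 (mm9 chr7:59003199-59003257). Signal from near-identical copies of Gapdh cannot be separated.

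Different probes of the same gene gave different answers for Hk1, Pfkp and Epas1, whereas the other 11 of 14 members with several probes gave the same call throughout and spanned at most 0.30. Hk1, the hexokinase found in most tissues, was represented by its brightest probe (mm9 chr10:61731230-61731288), which read 115241 and 157203 on replicate 1 and 133961 and 144455 on replicate 2, a mean of 0.28 ± 0.12 that was not called. A second Hk1 probe (mm9 chr10:61731856-61731915) read 31075 in control and 14716 in BIO on replicate 1, and 28038 and 16617 on replicate 2, and fell by 0.92 ± 0.12 with an adjusted p of 0.00133. Another Hk1 probe (mm9 chr10:61732717-61732776) read 1193 and 724 on replicate 1 and 1090 and 560 on replicate 2, and fell by 0.84 ± 0.12 with an adjusted p of 0.00158. The direction given for Hk1 thus depended on the probe. With the mean of its 3 probes in place of the brightest, Hk1 fell by 0.49 with an adjusted p of 0.00910.

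Pfkp, the platelet form of phosphofructokinase, showed the opposite pattern. Its brightest probe (mm9 chr13:6581718-6583872) read 512 and 437 on replicate 1 and 547 and 436 on replicate 2, with a mean of −0.28 ± 0.11 that was not called. The dimmer probe (mm9 chr13:6579124-6579183) went from 153 to 255 and from 169 to 459, and rose by 1.09 ± 0.16 with an adjusted p of 0.00246. It was the single probe of the 62 that rose, while 12 fell. The mean of both Pfkp probes was 0.41, with an adjusted p of 0.0323.

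**Figure D3:**
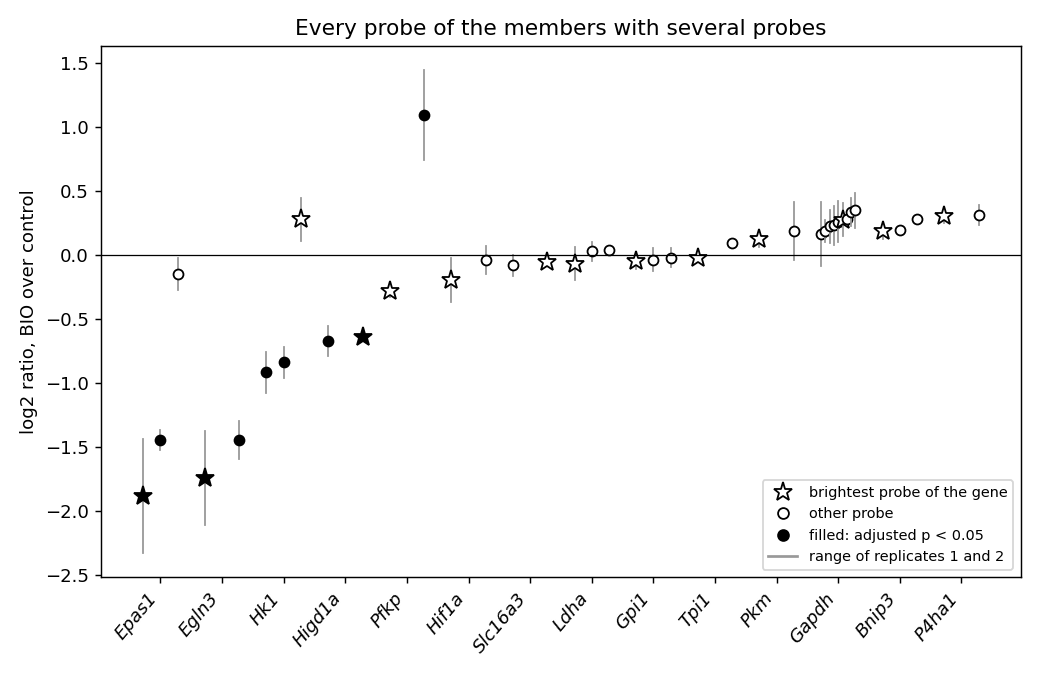
Mean log2 ratio of BIO over control (y axis) for every probe of the 14 members with several probes. Stars mark the brightest probe, filled symbols an adjusted p below 0.05, and lines the range of the replicates. The probes of Epas1, Hk1 and Pfkp span 1.73, 1.20 and 1.37, and those of Gapdh lie between 0.17 and 0.35.

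Pdk1 was lower in BIO, whereas the enzymes that interconvert pyruvate and lactate were not called. Pdk1 encodes a kinase that switches off pyruvate dehydrogenase and so limits the use of pyruvate by the mitochondria. Its probe (mm9 chr2:71739688-71739747) read 2177 in control and 1461 in BIO on replicate 1, and 1902 and 1379 on replicate 2. The BIO value lay below the control value on each array. The ratios of −0.58 and −0.46 gave a mean of −0.52 ± 0.11 with an adjusted p of 0.0113, a level 1.43-fold lower. The related kinase Pdk3 had −0.10 and −0.36 and was not called. The difference between both kinases was −0.47 on replicate 1 and −0.11 on replicate 2.

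Ldha, the lactate dehydrogenase subunit that HIF induces, read 83882 in control and 73183 in BIO on replicate 1, and 69934 and 72812 on replicate 2, so the arrays differed in direction. Its mean was −0.07, while the other Ldha probes had means of 0.03 and 0.04 and were not called. Ldhb, the subunit that prevails in oxidative tissue, had −0.16 and 0.04. Slc16a3, the HIF-responsive exporter of lactate, read 1687 and 1589 on replicate 1 and 1710 and 1689 on replicate 2. Its mean was −0.05 ± 0.11.

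Within the oxygen-sensing machinery, Epas1 and Egln3 had the largest falls of the 36 members, while Hif1a and Egln1 were not called. Epas1 encodes HIF-2α, the alpha subunit prominent in vascular endothelium. Its brightest probe (mm9 chr17:87232615-87232674) read 24722 in control and 4931 in BIO on replicate 1, and 23781 and 8763 on replicate 2. The BIO value lay well below the control value on each array. The ratios were −2.33 and −1.44, with a mean of −1.88 ± 0.19 and an adjusted p of 0.000354, a level 3.69-fold lower. By their brightest probes, 105 of the 21574 genes tested had a lower mean ratio.

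Egln3 encodes the prolyl hydroxylase PHD3, which is itself induced by HIF. The brighter of its probes (mm9 chr12:55280953-55281012) read 1497 in control and 347 in BIO on replicate 1, and 1238 and 477 on replicate 2. The ratios of −2.11 and −1.38 averaged −1.74 ± 0.17 with an adjusted p of 0.000298, a level 3.35-fold lower. The second Egln3 probe fell by 1.44 with an adjusted p of 0.000163.

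Hif1a, the broadly expressed alpha subunit, read 26324 and 25905 on replicate 1 and 25681 and 19885 on replicate 2. Its ratios of −0.02 and −0.37 averaged −0.20 ± 0.12 and were not called. Egln1, the main oxygen-dependent hydroxylase PHD2, had −0.14 and −0.23 and was not called. The ratio of Epas1 minus that of Hif1a was −2.30 on replicate 1 and −1.07 on replicate 2. The ratio of Egln3 minus that of Egln1 was −1.97 and −1.14. With 2 arrays these differences between genes were not tested.

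The 3 probes of Epas1 did not give the same result. The probe at mm9 chr17:87230587-87230646 was dim, at 484 in control and 168 in BIO on replicate 1 and 575 and 223 on replicate 2, and fell by 1.45 ± 0.11 with an adjusted p of 0.000129. The probe at mm9 chr17:87230678-87230737, only 31 bases further on, read 8508 and 8353 on replicate 1 and 6895 and 5716 on replicate 2. Its mean was −0.15 ± 0.12, with an adjusted p of 0.409. The fall of Epas1 thus rested on 2 of 3 probes. With the mean of its probes in place of the brightest it fell by 1.16 with an adjusted p of 0.000217, a level 2.23-fold lower.

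Markers of endothelium moved in the same direction as Epas1 and Egln3. All 10 endothelial markers fell, from Kdr (−2.63) and Cdh5 (−2.32) to Eng (−0.95), with a median of −2.01. Across all genes tested 14.8% fell, the share beside which this and the following marker counts stand. Their summed intensity was 85056 to 88759 in control and 16398 to 25178 in BIO, and none of the 10 was at background in either group. The endothelial fall was also larger on replicate 1, with a median of −2.26 against −1.47, as it was for Epas1 and Egln3. In pooled tissue, fewer cells of a type and less RNA per cell cannot be told apart. The part of these cells in the falls of Epas1 and Egln3 was not tested. Markers of other cells were lower as well: 7 of 8 ureteric mesenchyme markers fell, with a median of −0.76 and summed intensities of 694670 to 736700 in control and 409340 to 466330 in BIO. Of 8 epithelial markers 4 fell, with a median of −0.50 and sums of 222780 to 272030 and 157350 to 158330. Of 9 macrophage markers 5 fell, with a median of −0.44 and sums of 23244 to 24805 and 16322 to 19550. Of 10 erythroid markers 3 fell, with a median of −0.37 and sums of 511100 to 515230 and 276890 to 427180. All epithelial and mesenchymal markers were above background in both groups, as were all those of the other cell types. By their medians, macrophage markers (−0.67 on replicate 1, −0.21 on replicate 2) and epithelial markers (−0.62, −0.47) were also lower by more on replicate 1. Mesenchymal markers (−0.69, −0.76) and erythroid markers (−0.19, −0.56) were lower by more on replicate 2.

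Of the 11 remaining HIF targets 4 fell (36.4%), 0 rose and 7 were not called, with a median of −0.15, beside the 14.8% of all genes that fell and the 9.13% that rose. Ndrg1, a stress-responsive gene linked to differentiation, had the largest fall among them. Its probe (mm9 chr15:66761057-66761116) read 4901 in control and 2483 in BIO on replicate 1, and 4684 and 2255 on replicate 2. The ratios of −0.98 and −1.06 averaged −1.02 ± 0.11 with an adjusted p of 0.000461, a level 2.03-fold lower.

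Higd1a, a small protein of the inner mitochondrial membrane, read 27495 in control and 17367 in BIO on replicate 1, and 23855 and 15536 on replicate 2 (mm9 chr9:121758675-121758734). It fell by 0.64 ± 0.11 with an adjusted p of 0.00416, and its second probe fell by 0.67 with an adjusted p of 0.00459. P4ha2, a subunit of the prolyl 4-hydroxylase that modifies collagen, read 4239 and 3257 on replicate 1 and 4480 and 3131 on replicate 2 (mm9 chr11:53945032-53945091). It fell by 0.45 ± 0.11 with an adjusted p of 0.0218, and the BIO values lay below the control values on both arrays. Ankrd37, an ankyrin-repeat gene among the most regular HIF targets, read 432 and 261 on replicate 1 but 327 and 277 on replicate 2 (mm9 chr8:47082404-47082463). Its ratios of −0.73 and −0.24 averaged −0.48 ± 0.14 with an adjusted p of 0.0374, the highest among the 7 members that fell.

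**Figure D4:**
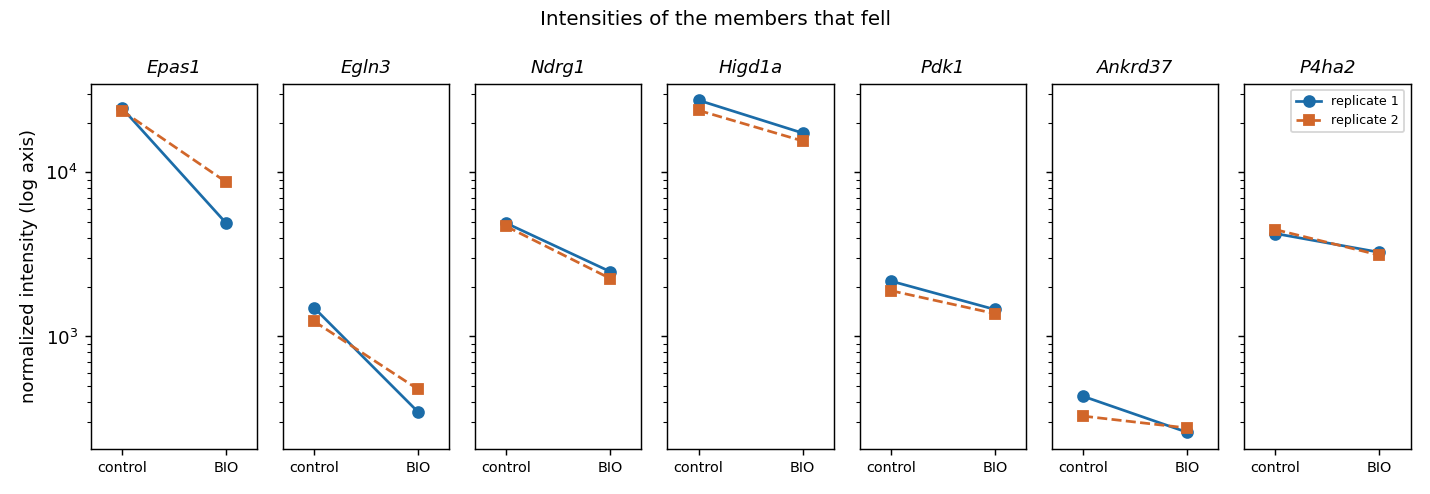
Normalized intensity (y axis, log scale) in control and BIO RNA for the brightest probe of the 7 members that fell, with 1 line per array. Every line slopes down. Epas1 and Egln3 fell more on replicate 1 than on replicate 2, and Ankrd37 fell from 432 to 261 on replicate 1 but from 327 to 277 on replicate 2.

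Several classical HIF targets had values close to control or slightly above it. Bnip3, which marks mitochondria for autophagy, read 16544 and 18036 on replicate 1 and 14420 and 17058 on replicate 2, a mean of 0.18 ± 0.11. Its 3 probes lay between 0.18 and 0.28. Ddit4, an inhibitor of the growth kinase mTORC1, had 0.15 and 0.20. Kdm3a, a histone demethylase, had 0.08 and 0.11. P4ha1, the isoform related to P4ha2, went from 1705 to 2030 and from 1615 to 2067. Its mean of 0.30 ± 0.11 had an adjusted p of 0.0819, and its second probe gave 0.31. P4ha1 exceeded P4ha2 by 0.63 on replicate 1 and by 0.87 on replicate 2, a difference that was not tested. Car9, a carbonic anhydrase that is among the most hypoxia-dependent genes, was dim, with 252 and 197 on replicate 1 and 219 and 229 on replicate 2. Ero1l, an oxidase that helps form disulfide bonds, had −0.16 on both arrays, and Mxi1, a MYC antagonist, had −0.24 and −0.01.

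By the stricter rule used in the study for its other arrays, a change of at least 2-fold on both arrays at an intensity of at least 100, 2 members were lower, Epas1 and Egln3, and 0 were higher. By this rule 458 of 21574 genes (2.12%) were lower.

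Other genes of the same pathways, listed by function but with earlier results of these data known, were examined for comparison. Their shares are therefore a description and not an independent check. Of 98 such genes 91 were tested, of which 7 rose (7.69%) and 27 fell (29.7%), with a median of −0.20. The shares over all genes were 9.13% and 14.8%. Among 33 further genes of glycolysis and pyruvate handling, 3 rose (9.09%) and 10 fell (30.3%). The largest fall was that of Hkdc1, a gene related to the hexokinases, which read 3574 and 818 on replicate 1 and 3610 and 1065 on replicate 2, a mean of −1.94 ± 0.13 with an adjusted p of 6.45e-05. The phosphatases that reactivate pyruvate dehydrogenase moved in opposite directions: Pdp1 fell by 1.27 and Pdp2 rose by 1.01. The kinases that oppose them, Pdk2 and Pdk4, fell by 0.75 and 0.68, like Pdk1. Slc2a3, a high-affinity glucose transporter, fell by 0.78. Bpgm, which makes the bisphosphoglycerate of red blood cells, rose by 0.69, and Gpd1, a glycerol phosphate dehydrogenase, rose by 0.40. In the pentose phosphate pathway Rpia rose by 0.54 and Taldo1 fell by 0.51, out of 8 genes. Of 12 further oxygen-sensing genes only Elob, a subunit of the ligase that removes HIF, was called, at −0.37.

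Among 38 further HIF targets 3 rose (7.89%) and 15 fell (39.5%), with a median of −0.24, again beside 9.13% and 14.8% of all genes. Among the larger falls were those of Cxcr4 (−1.83), a chemokine receptor, Bnip3l (−1.14), a mitophagy receptor related to Bnip3, Trf (−1.05), which encodes transferrin, and Adm (−0.89), which encodes a vasodilator peptide. Bnip3l read 82347 in control and 34490 in BIO on replicate 1, and 65738 and 32429 on replicate 2, so that it fell while Bnip3 was not called. The genes that rose were Edn1 (1.35), which encodes endothelin, Pmaip1 (0.88), a cell death gene, and Tfrc (0.40), the transferrin receptor. Edn1 went from 382 to 1069 and from 314 to 727.

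**Figure D5:**
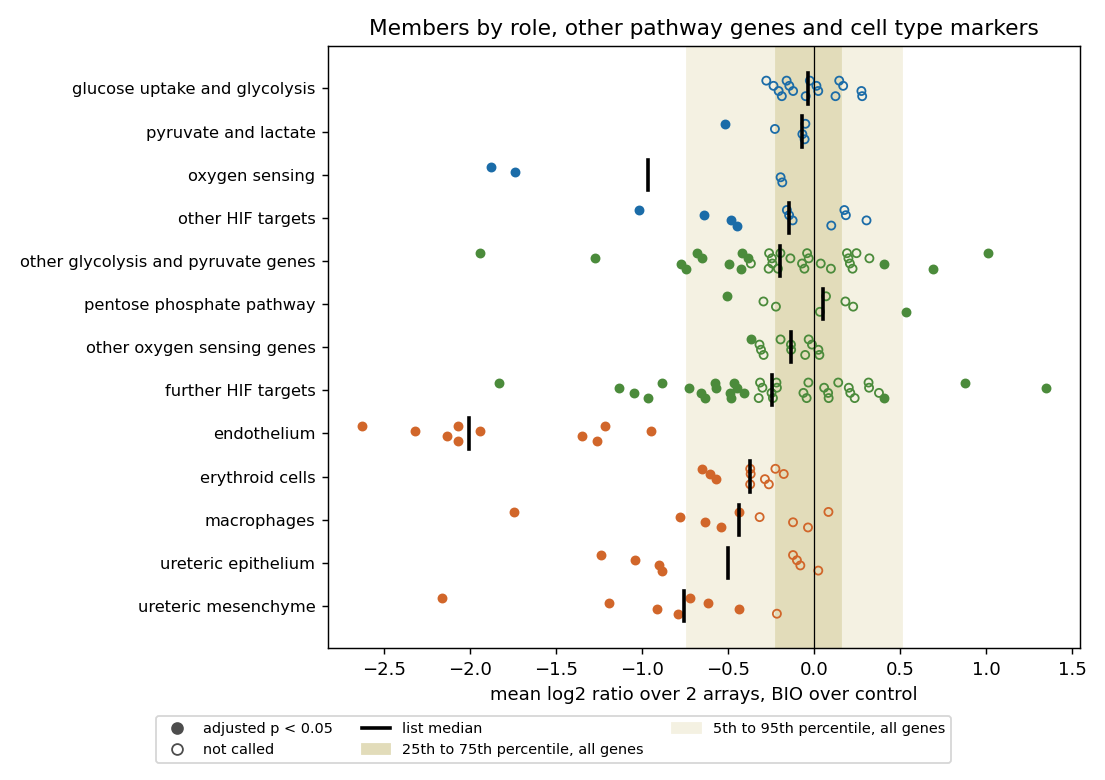
Mean log2 ratio over both arrays (x axis) for the genes tested in each list (y axis): members by role in blue, other pathway genes in green and cell type markers in orange. Filled points had an adjusted p below 0.05, black bars are list medians, and shaded bands give the percentiles of all genes tested. The endothelial list has the lowest median, −2.01, while that of the glycolytic members is −0.04.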

How the data were processed

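Gene expression was measured in 2 two-color Agilent arrays, each with control and BIO RNA of pooled ureters, and groups were taken from the labels. Per the file headers, the authors scanned the arrays and quantified them with Agilent Feature Extraction 10.7.3.1. The deposited tables give mean spot and local background intensities, not normalized, and processed signals that the software had background-subtracted and dye-normalized. The authors also deposited a table with 1 score per probe and array, which follows a signed fold change with an unstated centering and a column median of 1.

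Intensities were corrected by normexp with an offset of 50 and normalized by loess within each array in limma 3.58.1 (R 4.3.3). Outlier spots (3.49% and 3.16%) and control spots were left out, and spots of a probe were averaged. The dye-swapped ratio was turned. Probes well above background in 1 group on both arrays, 28824 in all, entered a two-sided limma test (lmFit, eBayes) of the ratio against 0, and p-values were adjusted after Benjamini and Hochberg over all of them, with a threshold of 0.05. Genes were named through accessions or symbols of the RefSeq table. A gene was represented by its brightest probe, and all members are named, with other probes given where call or sign differed. Other pathway genes are named by the 5 largest changes per list and direction, of which 1 is not reported here. No array gives a read depth, and the precision is limited by the number of arrays. The labels number the pools. With 2 arrays each probe has 1 residual degree of freedom against a prior of 7.14 that limma takes from all probes, so that SE and p-values rest mostly on the spread shared over probes. The members and lists were chosen with earlier results of these data known. The limma test was tried on simulated log2 ratios, and the steps before it were not simulated. Alternatives changed the background correction, normalization, offset, filter, probe rule, source table, call rule and threshold.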

Additional observations from a re-analysis of the deposited data

How the results depend on the processing

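Of the 7 members that fell, 4 kept their call with the processed signals, 4 at an adjusted p below 0.01, 2 by the 2-fold intensity rule and 3 with the score table (Pdk1, P4ha2 and Ndrg1), which called Pgk1, Egln1 and Ero1l as further falls. Under the other alternatives 6 or 7 kept it, and the mean of a gene's probes added Hk1, for 8 in all. The number that rose was 0, except 1 with median centering (Gapdh), 1 with the mean of a gene's probes (Pfkp) and 3 with the score table. Of the other pathway genes, the 7 that rose became 4 with median centering, 3 with the score table, 1 by the 2-fold rule and 4 at 0.01, and the 27 that fell became 16 with the processed signals, 6 with the score table, 4 by the 2-fold rule and 15 at 0.01. The score table is rounded and 19.9% of its probes hold identical values on both arrays, which affects its test. No member that fell changed sign under any alternative. Ankrd37 lost its call with the processed signals (adjusted p 0.0860), an offset of 16 (0.0545), no filter on dim probes (0.0686) and the score table (0.347). P4ha2 lost it with the processed signals (0.0677) and median centering (0.0876), Pdk1 with the processed signals (0.0521), and Epas1 (0.211), Egln3 (0.217) and Higd1a (0.0805) with the score table. The cause was not tested. The member median lay between −0.14 and −0.019 when either array was left out, as values with no test. Of the differences between related genes, that of Pfkp over Pfkm was −0.29 with loess and −0.43 with median centering. That of Eno2 over Eno1 was 0.35 with loess and 0.022 with median centering, where Eno1 itself had a mean of 0.047. Aldoc over Aldoa changed sign, from 0.15 to −0.12, as did Ldhb over Ldha, from 0.013 to −0.085. Each array holds 1 control and 1 BIO pool, so that the ratio tested is already the paired value and no fit with a further replicate block was run.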

Other observations

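Of the 7 members that fell, 5 were lower by more on replicate 1 than on replicate 2. Among the 10 endothelial markers this held for 9. The share among all genes that fell was not counted. The median over all genes tested was −0.03 on replicate 1 and 0.002 on replicate 2. The dyes were exchanged between these arrays, and pool and dye cannot be told apart. All 12 cell cycle genes and all 6 canonical WNT targets rose, with medians of 1.00 and 1.73, while the 8 integrated stress response genes gave 1 rise and 2 falls. Of all genes tested 9.13% rose and 14.8% fell.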
